A study of Mus musculus with 14 samples.

Results

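CD8+ T cells sorted from tumours were compared with CD8+ T cells sorted from spleens, using 6 of the 14 libraries of the series, chosen by their titles as 3 spleen and 3 tumour samples. The remaining 8 libraries were cultures of OT-1 splenocytes, whose T cells recognise an ovalbumin peptide. Of these, the 4 vehicle cultures, which were activated with that peptide and interleukin-2 and did not come from a tumour, served only as a description of what T cells express. Wild type C57BL/6 mice carried MCA-205 fibrosarcomas under the skin for 14 days, and spleens and tumours were then collected from groups of such mice. MCA-205 is a mouse fibrosarcoma line, so the tumour cells themselves are of connective tissue type. Per the labels, only the tumours were digested with a dissociation kit. Cells of both tissues were then enriched for CD8+ cells with a magnetic kit and sorted by flow cytometry, and poly(A) RNA was sequenced. The tumour samples are called pooled without a statement of what was pooled, and neither the age of the mice nor which spleen came with which tumour is stated in the labels. Nothing says that replicates were separate mice, so each p-value measures only how much these libraries vary, which may be technical.

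A CD8+ T cell recognises peptide on MHC class I through its T cell receptor, whose signals are carried by the CD3 chains. Naive and memory cells circulate through spleen and lymph nodes under transcription factors such as TCF1, whereas cells that meet antigen in a tumour switch on cytotoxic genes and, under lasting stimulation, inhibitory receptors such as PD-1. Growth and effector function draw on glycolysis, lipid synthesis and mitochondrial respiration.

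The tumour libraries held connective tissue RNA beside T cell RNA. Of 45 listed connective tissue genes, Thy1 and S100a4, which T cells express too, were left out of sums, since Thy1 alone stood at 1125, 1128 and 1089.9 CPM in spleen and 1000.0, 753 and 904 CPM in tumour libraries. The other 43 took 0.00924%, 0.00765% and 0.00737% of the counts in spleen libraries and 1.63%, 2.35% and 2.11% in tumour libraries. Col1a1, a chain of fibrillar collagen, stood at 1.302, 1.05 and 0.798 CPM in spleen and 1128, 1845 and 1540.4 CPM in tumour libraries. All 11 defining markers (Col1a1, Col1a2, Col3a1, Col5a1, Col5a2, Col6a1, Col6a2, Fn1, Sparc, Pdgfra and Pdgfrb) were detected in every tumour library, at summed levels of 9792, 13891 and 12438 CPM. Their sums were 16.1, 3.40 and 1.65 CPM in spleen, where 0, 3 and 4 of them were at 0, and 9.54 to 10.5 CPM in the vehicle cultures. CPM, the counts scaled to 1e+06 per library, compares 1 gene between libraries and is not a level per transcript length.

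The 18 T cell identity genes, which encode the receptor complex, the CD8 chains and their proximal signalling, took a smaller share of the tumour counts. That share was 0.983%, 1.00% and 0.993% in spleen and 0.558%, 0.418% and 0.489% in tumour libraries. On the geometric mean of the 18 genes, with the spleen mean set to 1, tumour libraries stood at 0.536, 0.406 and 0.458. Immunoglobulin genes, known from B cells, went from 0.0954%, 0.0963% and 0.0993% in spleen to 0.00941%, 0.00791% and 0.00820% in tumour. Which cells held these transcripts was not tested. The 62 ribosomal protein genes went from 9.70% to 9.96% of spleen counts to 5.55% to 6.06% of tumour counts, and the 13 mitochondrial mRNAs from 2.34% to 2.58% to 1.76% to 1.87%. No measure overlapped between tissues, and each gave p = 0.1 in a two-sided exact permutation test, the smallest that 3 against 3 allows. In bulk RNA, fewer T cells and less T cell RNA per cell cannot be told apart. Tumour library 2 had the most connective tissue RNA and the least T cell identity RNA, and tumour library 1 the reverse.

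**Figure D1:**
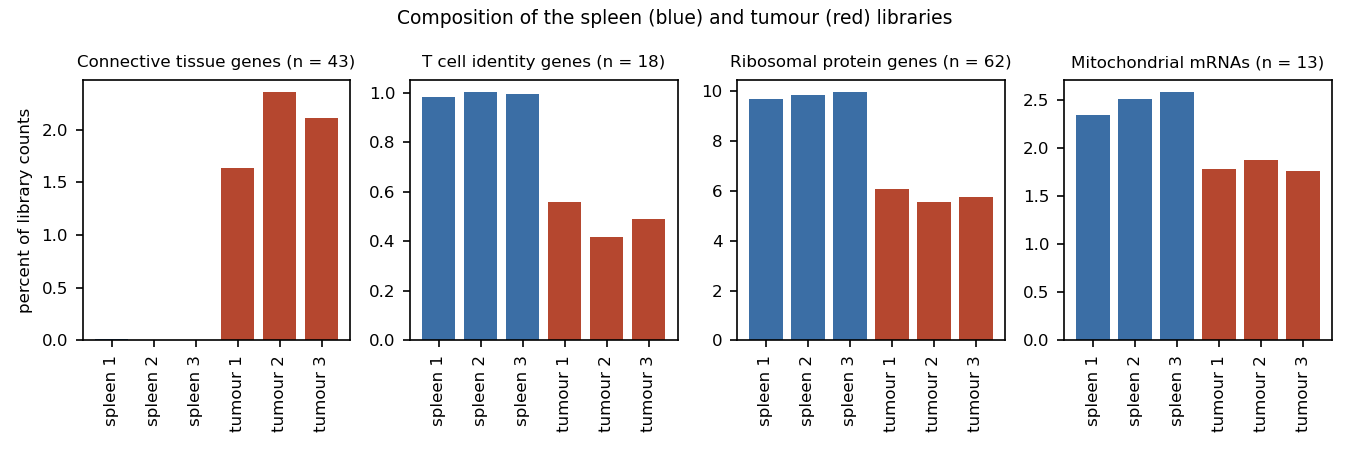
Percent of each library's counts (y axis, a separate scale per panel) held by connective tissue, T cell identity, ribosomal protein and mitochondrial mRNA genes in the 3 spleen (blue) and 3 tumour (red) libraries. Tumour libraries sit at 1.63% to 2.35% for connective tissue genes, where spleen is under 0.01%, and at 0.418% to 0.558% for identity genes, where spleen is near 1%.

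Most measured genes differed between the tissues. The quasi-likelihood test of edgeR called 12602 of 15042 genes (83.8%) at an adjusted p of 0.05, with 6551 (43.6%) higher and 6051 (40.2%) lower in tumour. Levels of 12967 genes (86.2%) did not overlap between the 3 spleen and the 3 tumour libraries. At a minimum change of 2-fold, 3769 (25.1%) were higher and 2227 (14.8%) lower. These shares are the background for every list described here, so a list is read by its median and its extremes more than by its number of calls.

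Which genes counted as lower depended on the scaling. With libraries scaled so that the 18 identity genes kept their level, 12575 genes (83.6%) passed, of which 10979 (73%) were higher and 1596 (10.6%) lower. The median over all genes went from 0.03 to 1.13 on the log2 scale, a shift of 1.10. All 6551 genes that were higher by the usual TMM scaling were higher by identity scaling too, an outcome that the upward shift favours. Of the 6051 lower genes, 1596 stayed lower, 2064 were no longer called and 2391 became higher. Identity scaling takes the identity genes as constant per T cell and divides the other cells' RNA by the T cell signal as well. Whether T cells of the tumour hold as much of these transcripts as those of the spleen was not tested. Log2 fold changes are therefore given by TMM scaling, with the identity-scaled value beside each gene whose direction or call it changes.

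Detection in the vehicle cultures split the 6551 higher genes. The cultures were normalised in a table of their own, so their levels serve as a description only. At 1 CPM or more in the cultures were 4954 genes (75.6%), with a median change of 1.06 on the log2 scale. Together they took 48.3% ± 0.963 of tumour counts and 23.6% ± 0.0989 of spleen counts (SD, n = 3 each). A further 1242 genes (19%) were detected in the cultures at under 1 CPM, with a median of 6.23, and rose from 0.0565% ± 0.00198 of spleen counts to 3.93% ± 0.669 of tumour counts. The last 355 genes (5.42%) had no count in any culture and a median of 8.56, and took 0.983% ± 0.171 of tumour counts. Among the 12216 tested genes at 1 CPM or more in cultures, 4954 (40.6%) were higher and 5274 (43.2%) lower.

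**Figure D2:**
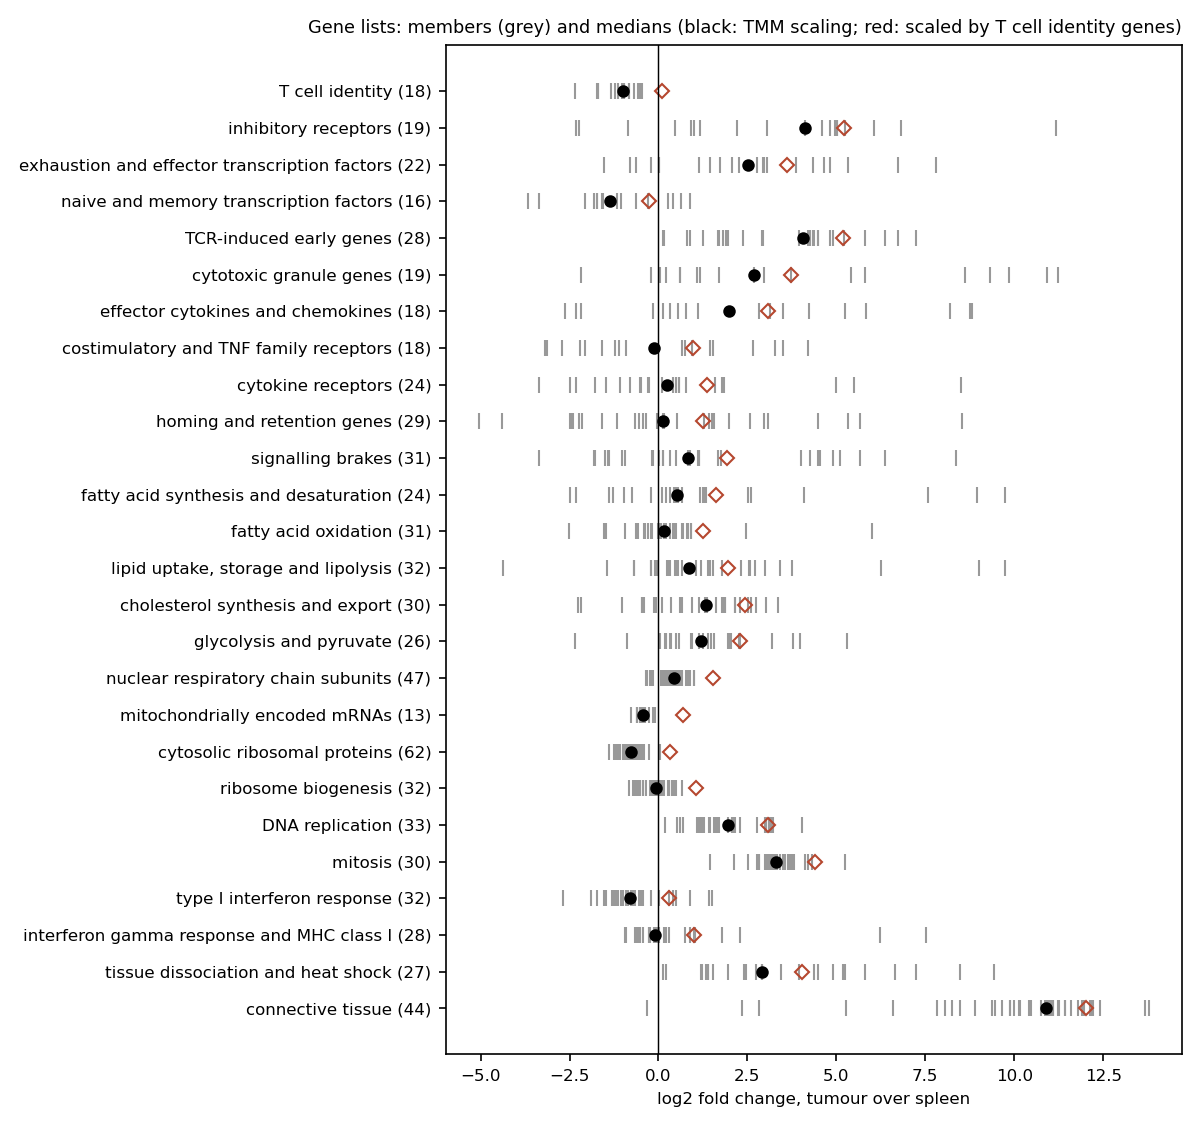
Log2 fold change, tumour over spleen (x axis), of the tested members of each gene list (grey ticks, number in brackets), with list medians by TMM scaling (black points) and by scaling to T cell identity genes (open red diamonds). Identity scaling moves medians to the right by about the 1.10 that it moves all genes, which carries T cell identity, mitochondrial mRNA, ribosomal protein, ribosome biogenesis and both interferon lists from below 0 to above 0, and costimulatory receptors likewise, but leaves naive and memory transcription factors at -0.27.

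All 18 T cell identity genes were lower in tumour libraries, with a median of -0.99, and their median was 0.10 when scaled to one another, with 7 higher and 5 lower. Cd3e, a chain of the CD3 complex, stood at 518, 529 and 513 CPM in spleen and 285, 226 and 286 CPM in tumour libraries. Cd8a, the CD8 alpha chain, stood at 1556, 1529.7 and 1564 CPM in spleen and 1079, 776 and 1035 CPM in tumour libraries. Neither gene's levels overlapped between tissues, and the log2 fold changes of -0.97 ± 0.09 and -0.69 ± 0.11 (SE; adjusted p = 4.81e-06 and 0.000397) turned to 0.12 and 0.40 by identity scaling. Trac, the constant region of the receptor alpha chain, moved alike, at -0.82 and 0.27. Bcl11b, a transcription factor that keeps T cell identity, fell furthest in the list, by 2.34 on the log2 scale, and by 1.26 with identity scaling. Cd8b1, the CD8 beta chain, and Cd247, the zeta signalling chain, also remained lower than the list as a whole, at -0.66 and -0.63 by identity scaling. Cd8b1 thus lay below Cd8a, its partner chain. Rescaling libraries shifts all genes about alike, so it is no separate check of that order.

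Genes of inhibitory receptors were higher in 16 of 19 members and lower in 3. Their median log2 fold change was 4.12 against 0.03 for all genes. Pdcd1, which encodes PD-1, stood at 5.26, 3.85 and 3.84 CPM in spleen and 528, 380.1 and 549 CPM in tumour libraries, a log2 fold change of 6.81 ± 0.20 (SE; adjusted p = 1.53e-08). Ctla4, which competes with CD28 for its ligands, stood at 3.95, 3.05 and 3.99 CPM in spleen and 282, 175 and 272 CPM in tumour libraries (6.05 ± 0.25). Lag3, a receptor that binds MHC class II, stood at 11.4, 4.095 and 7.03 CPM in spleen and 311, 217 and 325 CPM in tumour libraries (5.24 ± 0.36). Every tumour library was far above every spleen library for these 3 genes. The lowest tumour library for each was library 2, which also had the smallest share of T cell identity counts. A link between the 2 was not tested. Havcr2 (TIM-3) rose by 5.03, Tigit by 4.95 and Klrc1 (NKG2A) by 5.03 on the log2 scale. The 3 members that fell included Btla, at 78.3, 74.8 and 78.8 CPM in spleen and 17.8, 14.5 and 14.4 CPM in tumour libraries. Vsir, which encodes VISTA, fell from 400.3, 404 and 391 to 99.8, 71.6 and 84.7 CPM. Both stayed lower by identity scaling, at -1.22 and -1.14. Layn, listed with the inhibitory receptors and also expressed by connective tissue cells, had no count in spleen and stood at 11.6, 15.8 and 15.01 CPM in tumour, at least 286-fold higher against 3 counts over the spleen group, but reached only 0.191 CPM in the vehicle cultures.

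Transcription factors of effector and exhausted cells were higher in 16 of 22 members and lower in 3, with a median of 2.52. Bhlhe40, a repressor induced by activation, stood at 5.26, 2.15 and 3.59 CPM in spleen and 876, 796 and 789 CPM in tumour libraries, a log2 fold change of 7.799 ± 0.22 (SE). Nr4a2, a nuclear receptor induced by T cell receptor signals, stood at 4.19, 2.95 and 3.19 CPM in spleen and 373, 345 and 379 CPM in tumour libraries, and its tumour levels varied less than those of the inhibitory receptors. Tbx21 (T-bet), Irf4 and Prdm1 (BLIMP1) rose by 2.06, 2.95 and 2.77. The best known factor of exhaustion did not follow them. Tox stood at 59.4, 64.4 and 64.03 CPM in spleen and 43.2, 29.5 and 48.5 CPM in tumour libraries, a log2 fold change of -0.63 ± 0.16 (adjusted p = 0.00582) that turned to 0.45 by identity scaling (adjusted p = 0.012). Its call was lost without tumour replicate 1 (adjusted p = 0.0714) and with no low-count filter (adjusted p = 0.0709). Eomes, the T-box relative of T-bet, fell by 1.52 under TMM and by 0.43 under identity scaling, with levels of 101, 100.3 and 106 CPM in spleen and 42.7, 36.3 and 28.7 CPM in tumour libraries.

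Transcription factors of naive and memory cells were lower in 12 of 16 members and higher in 4, with a median of -1.36. Tcf7, which encodes TCF1, stood at 1386, 1456 and 1489 CPM in spleen and 144, 151 and 128 CPM in tumour libraries, and Lef1, its relative, at 396, 429 and 428 CPM in spleen and 37.9, 33.6 and 27.2 CPM in tumour libraries. Mean levels were 10.3-fold and 12.7-fold lower in tumour, and the log2 fold changes of -3.36 ± 0.07 and -3.67 ± 0.11 (SE) became -2.25 and -2.57 by identity scaling, so they were called lower under either. Klf2, which drives the genes of lymphocyte exit, fell by 1.58 and Bach2, a repressor of effector genes, by 1.81, with identity-scaled values of -0.45 and -0.71. Slamf6, a surface marker of TCF1-positive T cells, listed with the costimulatory receptors, fell from 166, 166 and 163 to 22.4, 17.96 and 14.5 CPM.

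Early genes induced by T cell receptor signals were higher in 26 of 28 members and lower in none, with a median of 4.07. Fosl2, an AP-1 subunit, stood at 26.8, 31.3 and 26.9 CPM in spleen and 1094, 1016 and 1022 CPM in tumour libraries, a log2 fold change of 5.204 ± 0.08 (SE; adjusted p = 6.26e-10). Nr4a1 and Nr4a3, relatives of Nr4a2, rose by 4.34 and 4.82, and Egr2, a zinc finger factor, by 1.71. Several early genes are also induced by tissue digestion. The 27 genes of tissue dissociation and heat shock rose in 26 cases (27 by identity scaling), with a median of 2.91. Fos, another AP-1 subunit, stood at 13.6, 37.1 and 88.02 CPM in spleen and 563, 805 and 754 CPM in tumour libraries, so the spleen libraries themselves differed widely. Hspa1a, an inducible heat shock protein, stood at 28.4, 83.999 and 106 CPM in spleen and 592, 835 and 962 CPM in tumour libraries. Only tumours were digested, so the digestion and the tissue cannot be told apart for these genes. The fitted change of Fos was 3.94, and 4.83 without spleen replicate 3.

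Genes of cytotoxic granules were higher in 14 of 19 members and 1 fell (2 without tumour replicate 3), with a median of 2.68. Gzmb, granzyme B, stood at 26.5, 6.29 and 15.5 CPM in spleen and 849, 474 and 739 CPM in tumour libraries, a log2 fold change of 5.41 ± 0.56 (SE; adjusted p = 0.000289) that was 6.01 without spleen replicate 1. Prf1, perforin, which forms the pore for granzymes, did not pass. It stood at 95.7, 105 and 106 CPM in spleen and 164, 100.2 and 202 CPM in tumour libraries, where tumour library 2 lay within the spleen range (log2 fold change 0.60 ± 0.25; adjusted p = 0.0599). Without that library the adjusted p was 0.00022, with RLE size factors it was 0.0407, with DESeq2 0.00248, and by identity scaling the value was 1.68 (adjusted p = 3.12e-06). Gzmk, another granzyme, rose by 2.68 ± 0.56 from low levels. Gzmf and Gzmd, granzymes of the cluster beside Gzmb, stood at 87.8, 78.8 and 344 CPM and 17.9, 13.04 and 31.5 CPM in tumour and under 0.15 CPM in every spleen library. Tumour library 3 was the highest for both. Reads may be divided uncertainly between these near-identical paralogs. Gzmm, a granzyme encoded elsewhere, was the member that fell, from 12.6, 10.5 and 11.9 to 2.72, 2.36 and 2.63 CPM.

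Effector cytokines and chemokines were higher in 11 of 18 tested members and lower in 3, with a median of 1.97, and 3 further members had too few counts to be tested. Ifng, interferon gamma, stood at 1.21, 0.599 and 1.05 CPM in spleen and 54.4, 48.3 and 61.4 CPM in tumour libraries (log2 fold change 5.83 ± 0.18). Fasl, the death ligand, rose by 5.81 and Xcl1, a chemokine for cross-presenting dendritic cells, by 2.84. Ccl4, an inflammatory chemokine, rose by 3.14. Ccl5, another of these, was already abundant in spleen and did not pass, at 143, 121 and 140.2 CPM in spleen and 222, 144 and 144 CPM in tumour libraries (adjusted p = 0.105). It passed without tumour replicate 3 (adjusted p = 0.0334), with the replicate block (0.0267), with DESeq2 (0.0187) and by identity scaling (1.41). Csf1, the growth factor of macrophages, which fibroblasts also make, rose to 377, 595 and 467 CPM and was highest in tumour library 2. Ltb, lymphotoxin beta, fell by 2.32 and by 1.24 with identity scaling.

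Costimulatory and TNF family receptors divided evenly, 9 higher and 9 lower of 18. Tnfrsf9 (4-1BB), a receptor induced after antigen contact, stood at 16.01, 16.7 and 18.3 CPM in spleen and 346, 246 and 343 CPM in tumour libraries (log2 fold change 4.197 ± 0.15). Icos rose by 3.502, Tnfrsf4 (OX40) by 3.27 and Cd28 by 0.94. Cd27, a receptor of naive and memory cells, fell by 1.23, a call that identity scaling ended (-0.14; adjusted p = 0.174). Cytokine receptors also went both ways, 12 higher and 11 lower of 24. Il2ra and Il2rb, the alpha and beta chains of the interleukin-2 receptor, rose by 4.98 and 1.596. Il7r, the receptor for the survival cytokine of resting T cells, stood at 541, 549 and 515 CPM in spleen and 123, 93.8 and 105 CPM in tumour libraries. Il6ra, a receptor chain for interleukin-6, fell by 3.37, and both kept their call by identity scaling, at -1.23 and -2.26.

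Genes of homing and retention were 13 higher and 13 lower of 29 tested, with a median of 0.14. S1pr1, the receptor for exit into the circulation, fell from 469.6, 470.5 and 477 to 106, 98.5 and 63.6 CPM. Ccr7, a chemokine receptor that leads cells to lymph nodes, changed little by comparison. It stood at 386, 409 and 406 CPM in spleen and 367, 316 and 267 CPM in tumour libraries (-0.34, adjusted p = 0.0126), turned to 0.76 by identity scaling, and lost its call without tumour replicate 2 (adjusted p = 0.0615) and with no low-count filter (adjusted p = 0.0697).

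Receptors for inflamed tissue did not move together. Cxcr6, the receptor of CXCL16, stood at 87.4, 82.1 and 72.4 CPM in spleen and 224, 157 and 200.2 CPM in tumour libraries (1.27 ± 0.13). Cxcr3, which binds CXCL9 and CXCL10, stood at 82.1, 76.01 and 75.5 CPM in spleen and 73.1, 48.4 and 39.5 CPM in tumour libraries and fell by 0.54 (adjusted p = 0.0418), which turned to 0.54 by identity scaling. That call was lost with RLE size factors (adjusted p = 0.051), with no low-count filter (0.186) and without any single library other than tumour replicate 1 (0.0694 to 0.195). Ccr8 was at 47.7, 42.5 and 43.3 CPM in tumour and 0.241, 0 and 0.0997 CPM in the 3 spleen libraries. Its change of 8.52 was 9.66 without spleen replicate 1, and vehicle cultures held 0.386 CPM. Ccr9, a receptor for gut homing, stood at 143, 150.2 and 143 CPM in spleen and 11.6, 1.03 and 0.717 CPM in tumour libraries, so tumour library 1 was over 10 times above the other tumour libraries. The fitted change of -5.03 was -7.34 without tumour replicate 1.

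Integrins and early markers of tissue residence also split. Itgae, the CD103 chain that binds E-cadherin, fell from 154, 153 and 152 to 40.1, 25.8 and 16.9 CPM, and Itga1, the CD49a chain that binds collagen, rose from 1.83, 1.099 and 1.696 to 59.7, 53.4 and 74.5 CPM. Cd69, which retains cells in tissue, stood at 72.1, 78.3 and 78.5 CPM in spleen and 89.7, 76.7 and 87.1 CPM in tumour libraries and did not pass (log2 fold change 0.15 ± 0.07; adjusted p = 0.0687). It passed with RLE size factors (adjusted p = 0.0157), DESeq2 (0.0127), no low-count filter (0.0172), without tumour replicate 2 (0.00366) and by identity scaling (1.24). Cd44, an adhesion receptor of antigen-experienced T cells that fibroblasts express too, rose by 3.09.

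Brakes on signalling were higher in 18 of 31 members and lower in 9, with a median of 0.83. Rgs16, an inhibitor of G protein signals, stood at 3.47, 2.75 and 2.59 CPM in spleen and 926, 886 and 1124 CPM in tumour libraries (log2 fold change 8.37 ± 0.14). Dusp5, a phosphatase of ERK, and Cish, an inhibitor of cytokine signals, rose by 4.47 and 4.25. Dgka, a diacylglycerol kinase that restrains receptor signals, went the other way, from 1165, 1171 and 1179 to 132, 101 and 108 CPM, and stayed lower by identity scaling (-2.28).

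**Figure D3:**
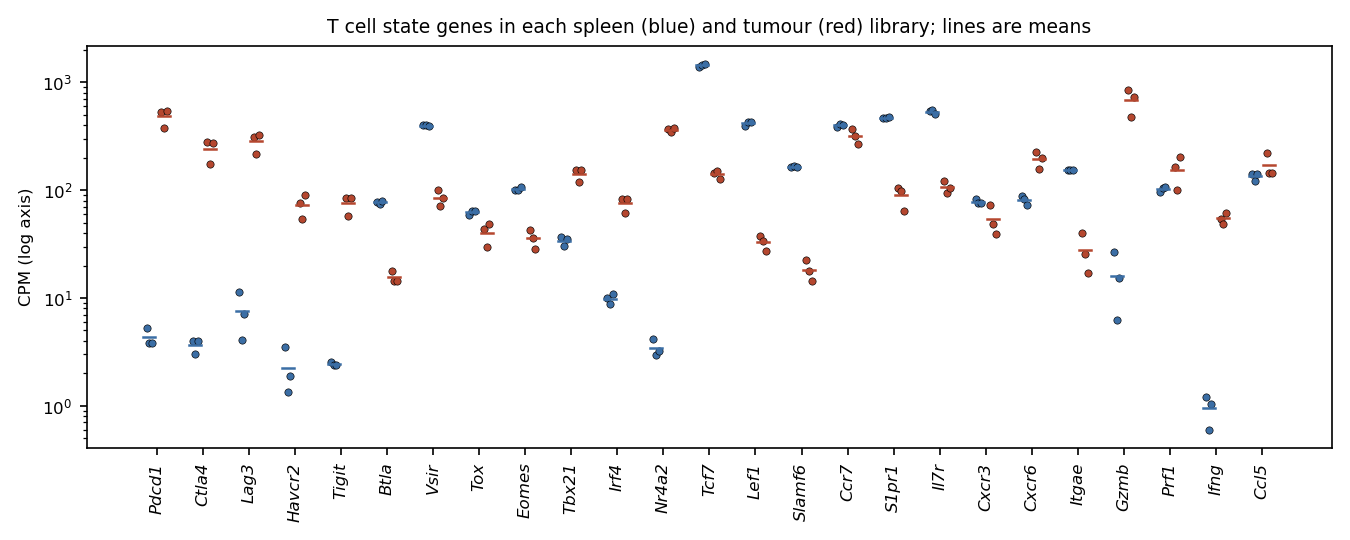
CPM on a log axis (y) of T cell state genes in each spleen (blue) and tumour (red) library, with horizontal lines at the means of 3. Pdcd1 lies at 3.84 to 5.26 CPM in spleen and at 380.1 to 549 CPM in tumour, Tcf7 and Lef1 fall 10.3-fold and 12.7-fold, and Prf1 overlaps between tissues; the lower tumour levels of Tox, Ccr7 and Cxcr3 turn to higher when libraries are scaled to T cell identity genes.

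Fatty acid synthesis and desaturation genes were higher in 16 of 24 tested members (26 listed) and lower in 7, with a median of 0.52. Acaca, the cytosolic acetyl-CoA carboxylase that commits carbon to fatty acids, stood at 60.6, 60.5 and 58.7 CPM in spleen and 83.9, 83.96 and 82.98 CPM in tumour libraries, a log2 fold change of 0.48 ± 0.04 (SE; adjusted p = 5.38e-06). Fasn, fatty acid synthase, stood at 282, 275 and 275 CPM in spleen and 419.7, 460.1 and 429 CPM in tumour libraries (0.65 ± 0.05). Both changes were small beside those of the desaturases. Scd2, a stearoyl-CoA desaturase, stood at 85.2, 88.3 and 84.2 CPM in spleen and 471, 549.6 and 545 CPM in tumour libraries (2.603 ± 0.07), and Scd1, its relative, rose from 1.398, 0.2996 and 0.1496 to 98.9, 128 and 132 CPM. The fitted change of Scd1 was 7.57, and 9.04 without spleen replicate 1. Scd1 and Scd2 were also abundant in the vehicle cultures, at 80.2 and 922 CPM. Fads1, a desaturase of polyunsaturated fatty acids, rose by 2.52. Acacb, the mitochondrial carboxylase whose product inhibits fatty acid import, fell from 3.09, 2.75 and 3.19 to 1.58, 1.23 and 0.621 CPM (-1.39 ± 0.31; adjusted p = 0.002), a call that identity scaling ended (-0.32; adjusted p = 0.371). Acss2, which makes acetyl-CoA from acetate, fell by 2.33, and by 1.24 with identity scaling.

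Fatty acid oxidation genes were higher in 14 of 31 tested members and lower in 10, with a median of 0.16. Cpt1a, the gate for fatty acid import into mitochondria, stood at 79.6, 61.3 and 70.7 CPM in spleen and 58.7, 47.6 and 54.01 CPM in tumour libraries, a change of -0.40 ± 0.11 (adjusted p = 0.00642) that turned to 0.69 by identity scaling. Hadha, a subunit of the trifunctional oxidation enzyme, stood at 127, 129.8 and 126 CPM in spleen and 140.0, 129.7 and 134 CPM in tumour libraries and did not pass (adjusted p = 0.162), though it did by identity scaling (1.18), with RLE size factors, with DESeq2 and without tumour replicate 2. Acadl, a long-chain acyl-CoA dehydrogenase, rose by 0.91 and Crat, carnitine acetyltransferase, by 2.47. Ppargc1b, a coactivator of mitochondrial genes, fell from 18.9, 18.5 and 20.3 to 3.51, 2.98 and 3.54 CPM and stayed lower by identity scaling (-1.43).

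Cholesterol synthesis and export genes were higher in 21 of 30 tested members and lower in 5, with a median of 1.33, the highest of the 4 lipid lists. Hmgcs1, which acts at the start of the mevalonate pathway, stood at 58.3, 60.2 and 58.4 CPM in spleen and 233, 286 and 272 CPM in tumour libraries, a log2 fold change of 2.16 ± 0.08 (SE). Sqle, squalene epoxidase, stood at 16.8, 18.98 and 16.6 CPM in spleen and 159, 192 and 184 CPM in tumour libraries (3.35 ± 0.09), and Cyp51, lanosterol demethylase, at 25.1, 27.7 and 26.8 CPM in spleen and 219, 211 and 215 CPM in tumour libraries (3.02 ± 0.05). Insig1, a sensor that restrains the pathway, rose by 2.61 and Srebf2, its main transcription factor, by 0.65. The synthesis genes named here were all above every spleen library in all 3 tumour libraries. The sterol exporters moved the other way. Abca1 stood at 39.9, 33.2 and 34.1 CPM in spleen and 7.81, 6.93 and 7.696 CPM in tumour libraries and Abcg1 at 107, 114 and 109.7 CPM in spleen and 28.6, 22.5 and 21.3 CPM in tumour libraries, and both stayed lower by identity scaling, at -1.16 and -1.104.

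Genes that take up, store or break down lipid were higher in 22 of 32 tested members (35 listed) and lower in 5, with a median of 0.87. Dgat1, which completes triglycerides, stood at 22.7, 21.3 and 21.1 CPM in spleen and 347, 261 and 275 CPM in tumour libraries (3.76 ± 0.12). Plin2, a coat protein of lipid droplets, stood at 5.69, 3.75 and 4.54 CPM in spleen and 44.1, 56.4 and 50.5 CPM in tumour libraries (3.43 ± 0.15). Hilpda, an inhibitor of lipolysis induced by low oxygen, and Fabp5, a fatty acid carrier, rose by 2.71 and 2.55. G0s2, another inhibitor of lipolysis, went the other way, from 10.03, 11.1 and 9.92 to 0.346, 0.719 and 0.4302 CPM. Cd36, a fatty acid translocase, was scarce in both tissues and did not pass, at 0.723, 0.4495 and 0.598 CPM in spleen and 0.346, 0.565 and 1.195 CPM in tumour libraries (log2 fold change 0.25 ± 0.47; adjusted p = 0.626). Its value was -0.34 without tumour replicate 3, and it was called higher by identity scaling (1.35; adjusted p = 0.0225). The vehicle cultures held 4.57 CPM of Cd36. Connective tissue cells express most lipid genes too, and their part in these values was not tested.

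**Figure D4:**
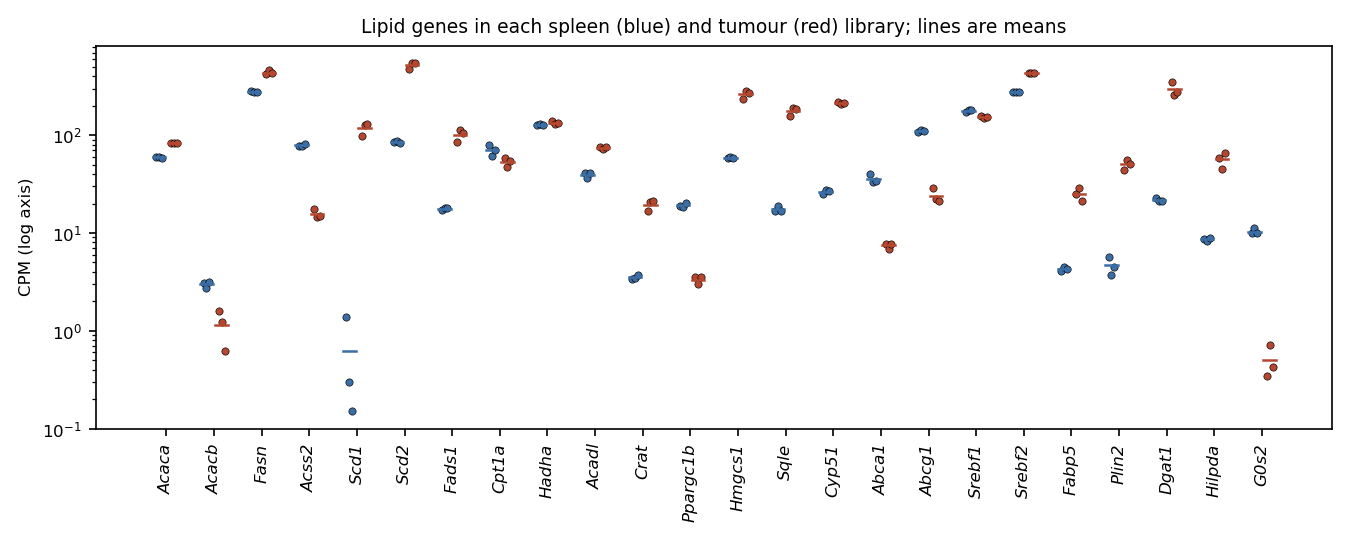
CPM on a log axis (y) of genes of lipid metabolism in each spleen (blue) and tumour (red) library, with horizontal lines at the means of 3. Scd2, Sqle, Cyp51, Dgat1 and Plin2 are higher in every tumour library, Abca1, Abcg1, Ppargc1b and G0s2 lower in every one, and the small decreases of Cpt1a and Srebf1 turn to increases when libraries are scaled to T cell identity genes.

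Glycolysis and pyruvate genes were higher in 23 of 26 members and lower in 2, with a median of 1.19. Hk2, a hexokinase, stood at 7.91, 5.74 and 5.78 CPM in spleen and 96.03, 116 and 97.3 CPM in tumour libraries (3.99 ± 0.13). Ldha, which makes lactate, rose by 1.39, and Slc2a1, the glucose transporter GLUT1, by 2.02. Pdk1, an inhibitor of pyruvate entry into the citric acid cycle, fell from 344, 324 and 331 to 57.2, 73.5 and 66.6 CPM and by 1.22 with identity scaling. Nuclear genes of the respiratory chain were higher in 38 of 47 members and lower in 4, with a lower median of 0.44, among them Cox5a, a subunit of cytochrome c oxidase, at 50.7, 49.7 and 49.4 CPM in spleen and 104, 97.6 and 98.3 CPM in tumour libraries.

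The mitochondrial mRNAs were lower in 11 of 13 members and higher in none (median -0.43), but rose in all 13 by identity scaling (median 0.68). The respiratory chain genes of the nucleus had a higher median than the mitochondrial ones. It was 1.54 by identity scaling, which shifts both lists about alike and is no separate check of their order. Cytosolic ribosomal proteins were lower in 61 of 62 members with a median of -0.77, yet 44 rose and 1 fell by identity scaling, with a median of 0.33. Rpl13, a protein of the large subunit, was at 2409.5, 2525 and 2514 CPM in spleen and 1418, 1338 and 1402 CPM in tumour libraries, a change of -0.84 that turned to 0.26. Ribosome biogenesis genes were 10 higher and 15 lower of 32, and 31 higher and none lower by identity scaling. Ncl, nucleolin, rose by 0.43 under TMM scaling.

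All 33 DNA replication genes and all 30 mitosis genes were higher in tumour, with medians of 1.97 and 3.31 by TMM scaling. Identity scaling, which moves all genes upward, left them higher. Mki67, a marker of cycling cells, stood at 71.9, 40.6 and 57.5 CPM in spleen and 478, 452 and 423 CPM in tumour libraries (2.99 ± 0.19). Mcm5, a helicase subunit of replication origins, stood at 91.3, 81.5 and 81.1 CPM in spleen and 288, 263 and 240.2 CPM in tumour libraries (1.64 ± 0.08). Spleen library 2 was the lowest and spleen library 1 the highest of the spleen libraries for Mki67, and no spleen library came near a tumour one. The libraries do not show which cells cycled.

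The interferon lists did not share 1 direction. Type I interferon response genes were lower in 23 of 32 members and higher in 6, with a median of -0.81, whereas by identity scaling 13 rose, 4 fell and the median was 0.30. Interferon gamma response and MHC class I genes were 11 higher and 14 lower of 28 (median -0.11), and 26 higher with none lower by identity scaling (median 0.99). Gbp2 and Gbp3 are interferon-induced GTPases, and Isg15 and Ifit1 are type I interferon response genes. Their promoters are shown because all 4 hold the core of the interferon-stimulated response element while their transcripts differed in direction. The core was searched as TTTC, any 2 bases and TTTC on both strands, overlapping matches included, in RefSeq promoters (GRCm38.p6) from 250 bases before to 50 after each start site. The stretches below cover the 150 bases before the start site of 1 annotated promoter each, in the direction of the gene, with the core in capitals. They lie at chr3:142559894-142560043 (+ strand) for Gbp3, chr3:142620513-142620662 (+) for Gbp2, chr4:156200819-156200968 (- strand) for Isg15 and chr19:34640739-34640888 (+) for Ifit1.
Gbp3: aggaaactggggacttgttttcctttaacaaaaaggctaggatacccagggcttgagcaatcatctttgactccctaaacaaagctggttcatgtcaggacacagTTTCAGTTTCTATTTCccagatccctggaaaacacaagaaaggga
Gbp2: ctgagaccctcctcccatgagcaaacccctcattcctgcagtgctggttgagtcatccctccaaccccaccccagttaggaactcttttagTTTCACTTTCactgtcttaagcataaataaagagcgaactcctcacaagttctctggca
Isg15: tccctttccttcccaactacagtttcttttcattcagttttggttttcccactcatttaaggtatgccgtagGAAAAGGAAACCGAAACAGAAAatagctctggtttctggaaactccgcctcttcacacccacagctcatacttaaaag
Ifit1: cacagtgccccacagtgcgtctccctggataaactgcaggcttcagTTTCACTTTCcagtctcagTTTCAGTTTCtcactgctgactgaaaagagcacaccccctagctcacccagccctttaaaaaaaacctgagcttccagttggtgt

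Gbp3 held 2 overlapping cores and Gbp2 held 1, at 45 and 59 bases before the start site for the first base of the earliest match. Isg15 held 3 overlapping cores, read from the opposite strand, and Ifit1 held 2 apart from each other, beginning 78 and 104 bases before the start site. The core was found in 11 of the 22 interferon gamma and MHC class I members with a promoter in the table and in 12 of the 23 type I members, against 3.443% of all 32851 promoters. Counted by gene, as the lists are, the share was 3.85% of the 10752 tested genes with a promoter. Of those 11, 5 were higher and 5 lower in tumour, and of those 12, 3 were higher and 8 lower. The gamma-activated site was searched as TTC, any 3 bases and GAA on both strands. It was found in 6 of the 22 (Irf1, Gbp5, Gbp7, Irgm2, Igtp and Psmb8), in 8.298% of all promoters and in 8.166% of the tested genes with a promoter. Of the 22, 4 members held both motifs with no overlap between them. A match describes these letters only and is no evidence of binding.

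Gbp3 stood at 27, 26.3 and 25.5 CPM in spleen and 87.97, 88.99 and 94.8 CPM in tumour libraries (log2 fold change 1.79 ± 0.06), and Gbp2 at 105, 102 and 112 CPM in spleen and 184, 223 and 237 CPM in tumour libraries (1.01 ± 0.09). Isg15, a ubiquitin-like protein, stood at 15.1, 14.3 and 17.4 CPM in spleen and 18.6, 24.9 and 19.02 CPM in tumour libraries (0.42 ± 0.13; adjusted p = 0.0138). Ifit1, an RNA-binding antiviral protein, stood at 24.2, 25.5 and 29.4 CPM in spleen and 16.4, 22.9 and 17.6 CPM in tumour libraries, a change of -0.47 ± 0.13 (adjusted p = 0.00758) that turned to 0.65 by identity scaling and lost its call without tumour replicate 3 (adjusted p = 0.0549). So the GTPases and Isg15 were higher in every tumour library than in any spleen library, and the order was reversed for Ifit1. Oas2 and Oas3, which make the activator of RNase L, fell by 2.68 and 1.91 and stayed lower by identity scaling, at -1.56 and -0.81. Irf1, a transcription factor induced by interferon gamma, rose by 0.74, Iigp1, another interferon-induced GTPase, by 2.29, and B2m, the light chain of MHC class I, by 0.20. Cxcl9 and Cxcl10, chemokines for CXCR3, rose by 6.22 and 7.51, to 29.9, 37.8 and 47.6 CPM and 112, 192 and 157 CPM. Both were scarce in the vehicle cultures, which had no count of Cxcl9 and 0.111 CPM of Cxcl10, and fibroblasts and myeloid cells are known to make both.

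The tumour libraries also differed among themselves. Tumour library 2 (2.35% connective RNA) was set against tumour library 1 (1.63%) because they held the most and the least, so the medians of connective tissue and T cell identity genes follow from that choice. Over 12972 tested genes with at least 1 CPM in each, the median log2 ratio of library 2 to library 1 was 0.0001, with 0.47 for connective tissue genes (42 of 44 above 0) and -0.41 for T cell identity genes (0 of 18). For tumour library 3 over library 1 these medians were 0.37 (42 of 44) and -0.23 (2 of 18). Each contrast has 1 library a side and no test, and both share library 1. Costimulatory receptors were at -0.34 in library 2 (2 of 18 above 0) and -0.22 in library 3 (1 of 18), and homing genes at -0.35 (5 of 28) and -0.28 (7 of 28). Inhibitory receptors were at -0.30 in library 2 (3 of 19) and 0.01 in library 3 (10 of 19), and cytotoxic granule genes went from -0.45 (1 of 18) to -0.14 (7 of 18). Effector transcription factors were at -0.22 (3 of 22) and -0.02 (8 of 22). Tissue dissociation and heat shock genes were at 0.43 (26 of 27) and 0.29 (24 of 27).

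The lipid and glycolysis lists lay within 0.1 of the median of all genes in both contrasts. In library 2 over library 1, cholesterol synthesis and export was at 0.00 (15 of 29 above 0), glycolysis at 0.00 (13 of 26), fatty acid synthesis at 0.07 (16 of 24), fatty acid oxidation at -0.05 (12 of 31) and lipid uptake and storage at 0.04 (16 of 29). These medians hide members that went both ways. Fads1 (0.41), Scd1 (0.37), Plin2 (0.35), Hmgcs1 (0.29) and Hk2 (0.28) were above 0, and Dgat1 (-0.41), Hilpda (-0.38), Abcg1 (-0.34) and Acss2 (-0.28) below. Whether single genes follow the connective tissue RNA was not tested. T cell receptor-induced early genes were at 0.03 (15 of 28) and mitosis genes at 0.08 (21 of 30). Ribosomal protein genes were at -0.13 with 1 of 62 above 0, DNA replication genes at -0.05 with 6 of 33, and ribosome biogenesis genes at 0.12 with 29 of 32. Signalling brakes (-0.27), cytokine receptors (-0.23) and naive and memory transcription factors (-0.19) were below the median of all genes, and type I interferon genes (0.19) above it. Macrophage markers were at 0.45 (8 of 11) and dendritic cell markers at 0.43 (8 of 12) in library 2, but at -0.33 and -0.21 in library 3. Among genes called higher in tumour, the median in library 2 was 0.07 for those at 1 CPM or more in the vehicle cultures, 0.43 for those under 1 CPM and 0.46 for those with no count there.

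**Figure D5:**
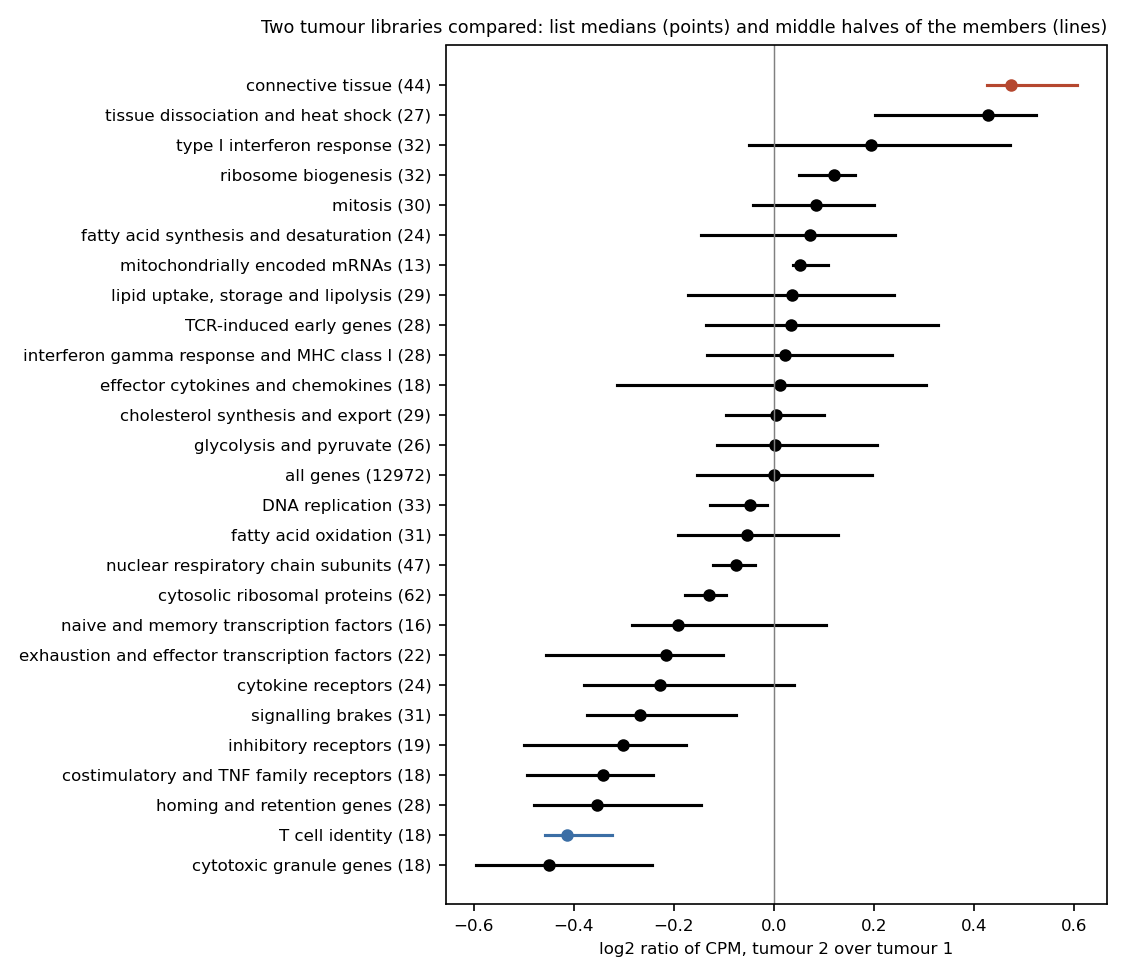
Log2 ratio of CPM in tumour library 2 over tumour library 1 (x axis) for each gene list (number of genes in brackets), with points at list medians and lines from the lower to the upper quartile of members. Connective tissue genes (red, median 0.47) lie at the right and T cell identity genes (blue, -0.41) at the left, with inhibitory receptors at -0.30, cytotoxic granule genes at -0.45 and tissue dissociation genes at 0.43.

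Markers of other cell types were also measured in the sorted cells. Those with no spleen count could be tested only where tumour counts sufficed, and could not come out lower. They were 5 of 14 listed for endothelial cells, 3 of 9 for pericytes and smooth muscle and 4 of 20 for macrophages and monocytes. Endothelial markers were higher in 12 of 13 tested members and lower in 1, Pecam1 (-2.62), which T cells express too, and their summed level was 161 to 172 CPM in spleen and 80.2 to 94.7 CPM in tumour, of which Pecam1 alone gave 168, 160.1 and 171 CPM and 28.4, 25.05 and 27.7 CPM. Markers of pericytes and smooth muscle rose in all 5 tested cases of 9 listed. Their sum went from 4.39 to 4.84 CPM in spleen to 81.3 to 115 CPM in tumour. Macrophage and monocyte markers were higher in 9 of 15 tested members and lower in 1 (2 without tumour replicate 1 or 2), with a sum of 471 to 494 CPM in spleen and 727 to 815 CPM in tumour. Spp1, osteopontin, which activated T cells and fibroblasts also make, gave 310.4, 424 and 419.8 CPM of the tumour sums, under 1 CPM in spleen and 227 CPM in the vehicle cultures. Without Spp1 the sum was lower in tumour, at 471 to 493 CPM in spleen and 307 to 428 CPM in tumour. That sum rests on its most abundant members and does not describe the list, whose 15 tested members had a median log2 fold change of 2.54. Of the defining myeloid genes, Csf1r, the macrophage growth factor receptor, stood at 2.75, 1.95 and 3.09 CPM in spleen and 3.904, 5.34 and 2.68 CPM in tumour libraries, with overlapping groups (adjusted p = 0.0704; called higher by identity scaling, at 1.72). Lyz2, lysozyme, rose from 1.45, 1.199 and 0.948 to 6.18, 9.14 and 5.69 CPM, a log2 fold change of 2.54 ± 0.26. Dendritic cell markers were higher in 7 of 13 tested members and lower in 1 (none without spleen replicate 1 or without tumour replicate 1 or 3). Of 13 neutrophil markers, 5 were at 0 in all tumour libraries and only Mmp9, a protease that fibroblasts also make, had enough counts to be tested, at 62.2, 84.6 and 65.2 CPM.

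B cell and plasma cell markers were lower in 8 of 10 tested members (14 without tumour replicate 2, where more were tested) and higher in 1, from a sum of 836 to 869.6 CPM to 95.7 to 105 CPM. Ighm, an immunoglobulin gene, alone gave 714, 684 and 714 CPM of the spleen sums and 66.6, 53.7 and 52.3 CPM of the tumour sums. The vehicle cultures held 114 CPM of Ighm. The 10 tested members had a median log2 fold change of -3.51. CD4 and regulatory T cell markers were higher in 5 of 8 tested members. All 5 were at 1 CPM or more in the vehicle cultures, among them Zbtb7b at 118 CPM and Ctla4 at 153 CPM. Which cells held them in tumour libraries was not tested. Cd4 stood at 0.771, 0.1998 and 0.0997 CPM in spleen and 0.692, 0.154 and 0.717 CPM in tumour libraries. Foxp3 stood at 2.27, 1.498 and 2.14 CPM in spleen and 2.87, 2.51 and 1.53 CPM in tumour libraries. For Cd4 and Foxp3 the groups overlapped and neither was called. By identity scaling all 8 members were called higher, Cd4 at 1.59 (adjusted p = 0.0443) and Foxp3 at 1.31 (adjusted p = 0.00171). Markers of NK and gamma delta T cells were higher in 10 of 14 tested members and lower in 3, and Ncr1, the defining receptor NKp46, rose from 0.0964, 0 and 0.1496 to 0.791, 0.873 and 0.956 CPM (3.32 ± 0.56), low levels in both. The part of these cells in the values of the T cell genes was not tested.

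Among genes that the vehicle cultures also expressed at 10 CPM or more, the 8 with the highest fold were Nupr1, Gzmf, Spp1, Map3k20, Ltbp3, Enah, Gzmd and Dmpk. All stood at under 1 CPM in every spleen library, so their folds rest on a few spleen counts. Nupr1, a stress-induced chromatin protein, had none, stood at 16.4, 23.7 and 20.9 CPM in tumour and was at least 412-fold higher against 3 counts over the spleen group. Ltbp3, a binding protein of TGF-beta, reached 119, 164 and 158 CPM and Map3k20, a stress kinase, 27.6, 40.9 and 33.2 CPM. Tumour library 2 was the highest of the 3 for Nupr1, Spp1, Map3k20, Ltbp3, Enah and Dmpk, and tumour library 3 for Gzmf and Gzmd.

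The 8 lowest genes were Kcna2, Slc16a5, Jchain, Xkrx, Lrrc75b, Dtx1, Tmie and Art2b. Dtx1, an E3 ligase of the Notch pathway, stood at 446, 475 and 481 CPM in spleen and 7.41, 6.06 and 4.92 CPM in tumour libraries, a log2 fold change of -6.25 ± 0.12 (SE; adjusted p = 8.68e-10). Art2b, a surface ADP-ribosyltransferase of resting T cells, stood at 113, 115 and 128 CPM in spleen and 1.63, 2.31 and 1.05 CPM in tumour libraries (-6.17 ± 0.16). Tmie, a membrane protein known from hair cells of the inner ear, stood at 55.2, 55.3 and 55.6 CPM in spleen and 0.642, 1.03 and 0.621 CPM in tumour libraries (-6.18 ± 0.13). All 3 were above every tumour library in each spleen library and stayed lower by identity scaling, at -5.17, -5.07 and -5.08, and the vehicle cultures held 2.27, 2.57 and 0.258 CPM of them.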

How the data were processed

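Poly(A) RNA of sorted CD8+ T cells from 3 spleen and 3 tumour samples was compared. The authors deposited estimated counts per gene symbol (55291 symbols). STAR, Salmon and DESeq2 are listed, without roles, in the submitters' processing notes. The build, gene models and strand setting behind the counts were not given in the sources used, so overlapping and antisense genes and near-identical paralogs are uncertain. Of the deposited estimated counts, 9.15% were not whole, and all were rounded. Library totals were 19.6 to 21.0 M (1e+06 counts), and 3 counts in a library equal 0.143 to 0.154 CPM, a floor that covers counting error only.

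One fit over the 6 libraries used edgeR 4.0.16 (R 4.3.3): TMM scaling, filterByExpr, robust quasi-likelihood test, Benjamini-Hochberg adjustment over 15042 genes, threshold 0.05. Standard errors derive from the F statistic. Shares of counts were compared in exact permutation tests, two-sided. Identity scaling divides each library by the geometric mean of 18 T cell identity genes. Every pair of libraries of a tissue differed by more than sampling noise (chi-square per degree of freedom 2.33 to 18.3), so none was counted as a duplicate. That comparison cannot decide whether the libraries came from separate mice, since it measures them against sampling noise only. Correlations of same-numbered spleen and tumour deviations were -0.0216 to -0.0126, which cannot decide whether replicate numbers pair the samples.

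The named genes were a panel chosen by role, the 8 highest and 8 lowest folds among called genes whose groups do not overlap (at least 20 CPM in the higher group and, for the highest, 10 CPM in vehicle cultures), and the smallest p of each of 38 lists; other list members were named after their values were seen, and some panel genes are not reported here. Members and lists were chosen with earlier results of these data known, and the contrasts of tumour libraries 2 and 3 with 1 were added after seeing the data. Alternatives were RLE size factors, DESeq2 1.42.0, limma-voom (limma 3.58.1), other filters, scalings and thresholds, the replicate block and leaving out each library. Figures were drawn with matplotlib 3.10.9.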

Additional observations from a re-analysis of the deposited data

How the results depend on the processing

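Except against a 2-fold change, 10228 to 14249 genes were called in the other settings over all 6 libraries, from differing numbers tested. Calls were 12602 of 15042 in the main fit, 12545 of 15042 with RLE size factors and 12635 of 15042 with limma-voom. They were 13519 of 20929 with DESeq2, 14249 of 27993 with no low-count filter and 11513 of 13451 with a mean of at least 1 CPM. Among genes at 1 CPM or more in vehicle cultures they were 10228 of 12216. Against a 2-fold change the number called was 5996 (3769 higher, 2227 lower). It was 12342 to 12928 when 1 library was left out. Scaling by T cell identity genes gave 10979 higher and 1596 lower, or 87.3% higher among calls against 52% with TMM, and scaling by 6 receptor complex genes 10896 higher and 1521 lower. Both of these scalings move all genes upward by construction. Among the genes followed across the settings, which leave out Srebf1, the same 12 changed sign under both. Their values under identity and receptor complex scaling were 0.12 and 0.13 for Cd3e, 0.398 and 0.402 for Cd8a, 0.27 and 0.28 for Trac, 0.452 and 0.451 for Tox, 0.755 and 0.77 for Ccr7, 0.54 and 0.55 for Cxcr3, 0.69 and 0.698 for Cpt1a, 0.26 and 0.27 for Rpl13, 0.65 and 0.66 for Ifit1, 0.496 and 0.51 for mt-Atp8, 0.28 and 0.29 for Polr1b, and 0.42 and 0.43 for Itga2b. Cd36 changed sign without tumour replicate 3 and ranged from -0.3436 to 0.6213 over the fits without 1 library. With the replicate block, 12492 genes were called (6504 higher, 5988 lower), although no label says that the numbers pair the samples. No correlation of a spleen with a tumour library exceeded 0.0460, which cannot decide whether they are paired.

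The shares of counts kept their direction without any 1 library: the tumour minus spleen difference was 1.86 to 2.22 percentage points for connective tissue genes, 0.938 to 1.12 for collagen genes, -0.539 to -0.469 for T cell identity genes, -0.0893 to -0.0874 for immunoglobulin genes, -0.7395 to -0.6205 for mitochondrial mRNAs and -4.19 to -3.93 for ribosomal proteins. The geometric means relative to spleen differed by -0.568 to -0.503 for identity genes and -0.566 to -0.4965 for receptor complex genes. Genes under about 1 CPM in spleen have fitted folds that rest on few counts; without spleen replicate 1 the log2 change of Spp1 went from 10.67 to 13.62, that of Enah from 9.96 to 13.13 and that of Dmpk from 9.77 to 13.32.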

Other observations

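Tumour library 1 had a count for 23703 genes, against 20452 and 20513 in the other tumour libraries and 18804 to 19296 in spleen. Of these, 3049 had a count in no other of the 6 libraries, 1959 of them a single count, and together they held 0.024% of its counts.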
